A study of Mus musculus with 2 samples.

Results

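The genes described here are 9 members of the Fos, Jun and Atf3 group: Fos, Fosb, Fosl1 and Fosl2 of the Fos family, Jun, Junb and Jund of the Jun family, and the related genes Atf3 and Batf. They were taken by name from the feature list, and all 9 were among its 32293 genes. The nuclei came from tdTomato+ cells sorted by FACS from femoral marrow, and the animals carried Prrx1-cre; R26R(tdTomato/+) and were taken at postnatal day 21. Prrx1-cre acts in the limb mesenchyme and its descendants, so the tdTomato label marks cells of that origin. Male and female animals of 1 litter were pooled, the growth plates at the distal ends were removed, and the bones were digested with enzymes before sorting. About 15000 nuclei were loaded for a joint RNA and ATAC assay, which gave 1 RNA library and 1 ATAC library on the same barcodes. With 1 library of each kind no test across animals was possible, and every interval below is a 95% interval for counting error only.

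AP-1 is a dimer of leucine zipper proteins. A Jun protein pairs with itself, with a Fos protein or with an Atf or Batf protein, and many of these pairs bind a short site in DNA. The site was searched here as TGANTCA (TGA, any base, TCA), which is wider than the preferred site with C or G in the middle. Fos, Fosb, Jun, Junb and Atf3 are immediate early genes, transcribed within minutes of a growth factor, of mechanical strain or of stress, through factors already present on their promoters. In the skeleton the group is known from mouse genetics: Fos is needed for osteoclasts, Fosl1 and Fosl2 act in bone matrix formation, and Junb acts in cartilage and bone growth. Tissue digestion is itself known to induce these genes, which is why their values are set beside the share of mitochondrial (mt-) RNA.

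A pair of the promoters carried a serum response element, the letters through which serum response factor and its Elk partners induce immediate early genes. In the strand of the gene, with the element in capitals, these stretches lay at chr12:85473566-85473605 (plus strand, the element 309 to 300 bases before the RefSeq start) and at chr7:19310293-19310332 (minus strand, 272 to 263 bases before the start).
Fos element: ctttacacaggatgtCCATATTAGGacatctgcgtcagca
Fosb element: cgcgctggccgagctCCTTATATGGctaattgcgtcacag
An element of this kind was found on either strand in the 1000 bases before the start of 5.31% of 27025 RefSeq promoters.

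The 250 bases before the RefSeq starts of Fos, Jun and Atf3 are shown because the nuclei differed in RNA and in accessibility at these promoters. They lie at chr12:85473640-85473889 (plus), chr4:95052223-95052472 (minus) and chr1:191183334-191183583 (minus) of GRCm38.p6. Capitals mark TGACG, part of a cAMP response element, on either strand, the TGACATCA of the Jun promoter, to which Jun and Atf2 are known to bind, and the TATAA of Fos.
Fos promoter: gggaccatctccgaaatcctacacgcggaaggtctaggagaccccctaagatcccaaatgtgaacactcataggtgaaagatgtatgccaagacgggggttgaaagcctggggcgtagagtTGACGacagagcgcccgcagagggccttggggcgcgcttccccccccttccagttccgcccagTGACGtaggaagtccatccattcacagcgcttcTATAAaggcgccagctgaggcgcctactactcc
Jun promoter: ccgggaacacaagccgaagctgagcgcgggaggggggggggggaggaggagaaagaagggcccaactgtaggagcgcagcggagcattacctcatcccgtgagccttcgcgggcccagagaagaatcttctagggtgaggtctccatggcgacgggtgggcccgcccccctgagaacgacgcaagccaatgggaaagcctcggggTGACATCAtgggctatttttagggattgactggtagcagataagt
Atf3 promoter: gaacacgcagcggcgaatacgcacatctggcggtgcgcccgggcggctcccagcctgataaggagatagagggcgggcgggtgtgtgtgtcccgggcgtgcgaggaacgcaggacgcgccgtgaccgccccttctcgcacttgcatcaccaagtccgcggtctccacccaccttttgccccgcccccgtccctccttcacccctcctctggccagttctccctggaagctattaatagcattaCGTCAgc
TGACG occurred on either strand in 17.9% of all promoters of this length, TATAA in 16.7% and TGACATCA in 3.02%. Among the 8 members with a RefSeq promoter, TGACG was also found in Fosb, Junb and Batf. The full TGANTCA letters were in none of these 8 windows and in 6.87% of all promoters. Fosl1 had no entry among them. Outside these windows the letters did occur in peaks within 1 kb of the starts of Fos, Fosl1 and Fosl2. The windows of Fosl2, Jund and Atf3 also ended at other starts than those from which the peak distances below were taken.

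TGANTCA did occur in called peaks near the members. These 41-base stretches, on the plus strand with the letters in capitals, come from the centres of peaks that were more open in at least 1 class of nuclei and whose nearest gene start was the member's own.
Fosb peak, chr7:19316764-19316804: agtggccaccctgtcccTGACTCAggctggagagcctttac
Junb peak, chr8:84982383-84982423: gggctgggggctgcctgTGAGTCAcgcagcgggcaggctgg
Fosl2 peak, chr5:32104213-32104253: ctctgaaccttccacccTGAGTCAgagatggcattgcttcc
Atf3 peak, chr1:191193937-191193977: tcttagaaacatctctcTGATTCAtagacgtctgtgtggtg
The centres of these 4 peaks lay at -6662, -3759 and -31503 bases from the starts of Fosb, Junb and Fosl2 and at 24020 bases from the outermost start of Atf3. They are 4 of the peaks described below, chosen because they hold the letters, and a match of letters is no sign that AP-1 was bound there.

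The libraries held 35460453 RNA UMIs and 191398837 ATAC counts, and 4663 barcodes passed 500 UMIs and 1000 ATAC counts. After 174 were removed as likely doublets, 4489 nuclei were left with a median mt- share of 16.9%, of which 1396 had at most 10% mt- UMIs. Marker lists gated 1652 nuclei: 119 chondrocyte, 82 hypertrophic, 11 tendon, 306 osteoblast, 506 reticular, 86 mural and 542 blood nuclei. At most 10% mt- UMIs were found in 11, 15, 7, 52, 316, 20 and 179 of them, and levels below are from these 600 nuclei unless stated. The names of 2 classes need a limit: the tendon nuclei gave 5964 CPM of the tendon markers but 56205 CPM of the osteoblast markers, the hypertrophic nuclei had 11643 CPM of the hypertrophic markers against 14097 CPM in the chondrocyte nuclei, and only 28 of the 82 hypertrophic nuclei fell in the cluster named hypertrophic. The blood nuclei passed a sort for tdTomato although Prrx1-cre is not known to act in blood. RNA of the tdTomato transgene was at 45.7 CPM in them, from 16 UMIs, against 232 to 693 CPM in the stromal classes. The blood gate held 142 erythroid, 109 granulocyte, 182 macrophage and 109 B-lymphoid nuclei. CPM here are per 1000000 UMIs outside mt- genes. RNA outside nuclei, read from 62603 barcodes of 100 to 400 UMIs, held the members too, at 436 CPM for Fos, 275 for Fosb, 198 for Jun, 367 for Junb and 44.9 for Atf3. On the scale without Gm42418, a ribosomal RNA overlap gene, that Fos value was 1116 CPM, against 877 in reticular nuclei.

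Fos, the inducible partner that gives the family its name, was at 1564 CPM [1219–1976] in tendon, 860 [729–1008] in chondrocyte, 695 [640–755] in reticular, 428 [288–610] in hypertrophic, 393 [246–595] in mural and 266 [229–307] in osteoblast nuclei. The intervals of the hypertrophic and mural nuclei overlapped, and those of chondrocyte and reticular nuclei overlapped as well. The 7 tendon nuclei ranged from 77.5 to 8110 CPM of Fos, with 1 to 32 UMIs each. The 11 chondrocyte nuclei ranged from 0 to 3715 CPM, with 0 to 44 UMIs each. In the hypertrophic nuclei 21 of the 30 Fos UMIs came from 1 nucleus. In blood, Fos was at 458 CPM in macrophage, 130 in granulocyte, 106 in B-lymphoid and 74.6 in erythroid nuclei. Of these only the macrophage value was above the 436 CPM of RNA outside nuclei. The hypertrophic, mural and osteoblast values were below that level as well.

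Fosb, a paralog of Fos that is induced with it, was at 1311 CPM in hypertrophic, 1251 in tendon, 1205 in chondrocyte, 1009 in reticular, 482 in mural and 301 in osteoblast nuclei. In the hypertrophic nuclei 49 of the 92 Fosb UMIs came from 1 nucleus and 29 from another, and 7 of the 15 nuclei had none. Fosb was at 699 CPM in macrophage nuclei, at 195 in granulocyte, at 99.5 in erythroid and at 59.0 in B-lymphoid nuclei. Fosl2, the longer-lived Fos protein of bone and cartilage, was at 136 CPM in chondrocyte, 128 in hypertrophic, 126 in reticular, 125 in mural, 67.0 in tendon and 43.6 in osteoblast nuclei, and at 133 in macrophage nuclei. The first 4 of these classes differed by less than their counting error. Fosl2 had 1 UMI in erythroid nuclei and none in granulocyte or B-lymphoid nuclei. Fosl1, the other Fos-related gene without a strong activation domain, had 19 UMIs in all 600 nuclei, 5 of them in the 11 chondrocyte nuclei, and Batf, a partner of Jun in lymphoid and myeloid cells, had 12, so that neither reached the 20 UMIs needed in any class.

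Jun, the partner that can also pair with itself, was at 581 CPM in tendon, 515 in reticular, 456 in hypertrophic, 334 in chondrocyte, 214 in mural and 206 in osteoblast nuclei. Unlike Fos it stood at 531 CPM in B-lymphoid nuclei. It was at 542 in macrophage nuclei, where Fos was at 458, with 130 in granulocyte and 24.9 in erythroid nuclei. Junb, which can take the place of Jun in dimers, was at 731 CPM in reticular nuclei and at 571 to 639 in chondrocyte, hypertrophic, tendon and mural nuclei, but at 207 in osteoblast nuclei. Jund, the Jun gene expressed without a stimulus, was at 693 CPM in tendon, 659 in reticular, 362 in chondrocyte, 342 in hypertrophic, 321 in mural and 303 in osteoblast nuclei. It was at 826 CPM in B-lymphoid, 675 in macrophage, 257 in erythroid and 179 in granulocyte nuclei. Atf3, which acts mostly as a repressor in stressed cells, was at 373 CPM in macrophage and 242 in hypertrophic nuclei, against 47.6 to 134 in the other stromal classes and no UMI in erythroid nuclei.

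**Figure D1:**
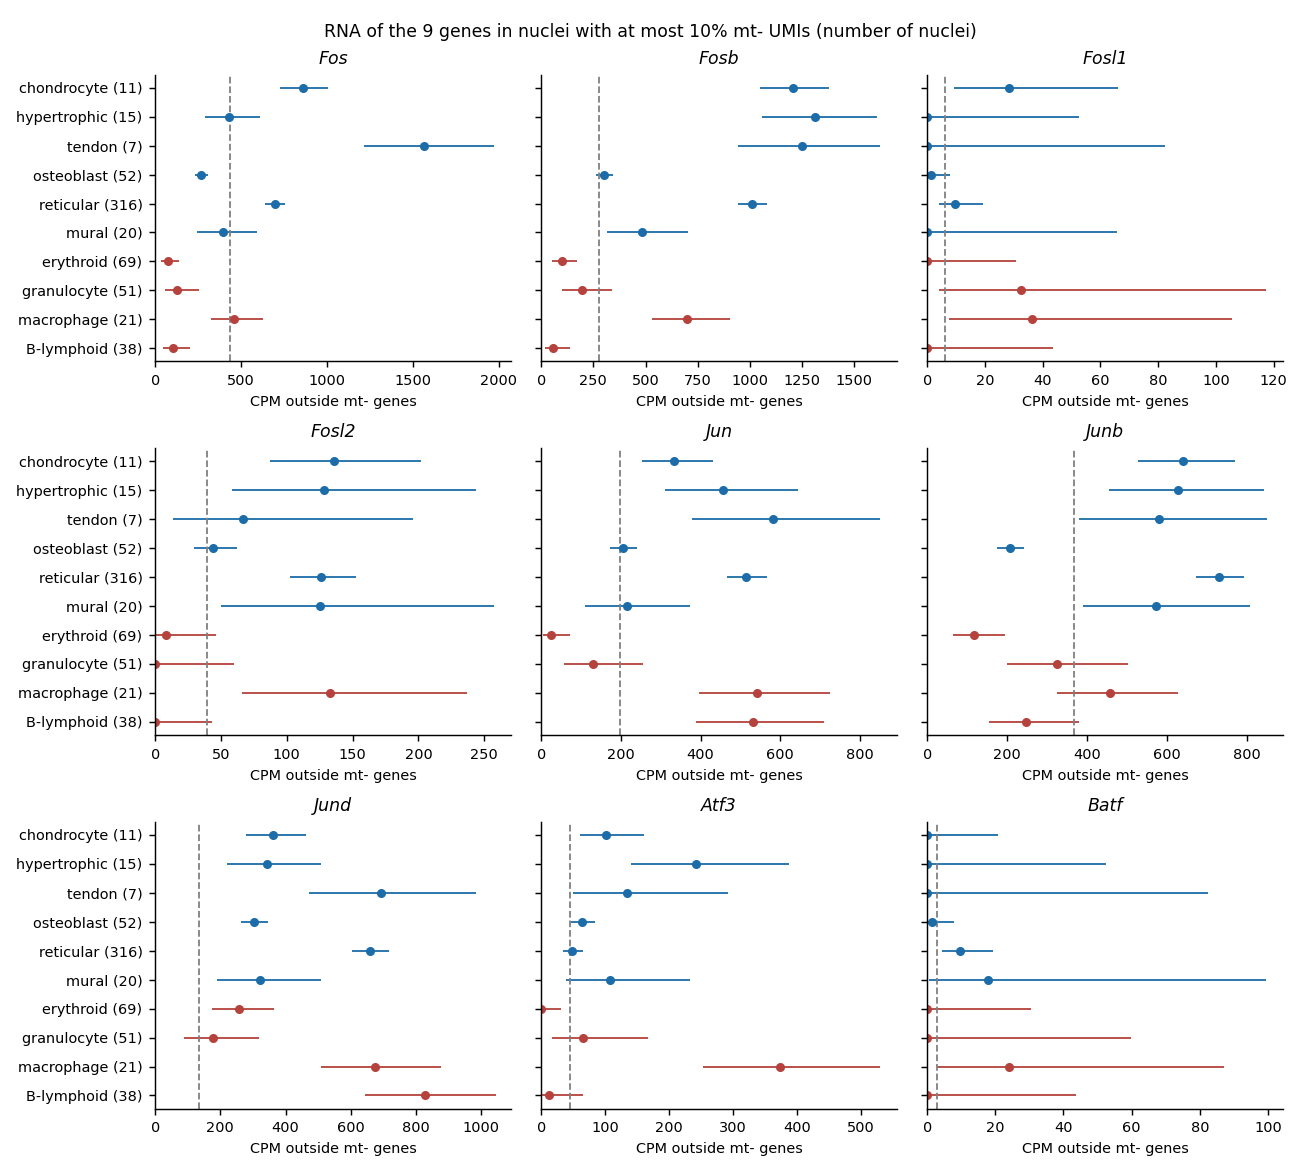
RNA of the members in each class of nuclei with at most 10% mt- UMIs, in CPM outside mt- genes, with exact Poisson 95% intervals and the level of RNA outside nuclei. Fos stands highest in the 7 tendon nuclei at 1564 CPM, and osteoblast nuclei are low for Fos, Fosb, Fosl2 and Junb.

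Each class was set against the other gated stroma, and blood against all gated stroma, with a gene called at 2-fold and at least 20 UMIs over both sides. Of 49 member and class pairs 12 were called. In osteoblast nuclei 5 of 7 members were called lower, against 40.6% of all genes lower and 4.53% higher: Fosb was 3.45-fold lower, Junb 3.36-fold, Fosl2 2.83-fold, Fos 2.71-fold and Jun 2.29-fold. The members' median log2 ratio there was -1.44 and that of all genes -0.78, beside osteoblast marker RNA that made up 201039 CPM of these nuclei. Fos and Junb were below their levels in RNA outside nuclei there, and Fosb and Jun were little above theirs. All 5 calls stayed when the RNA outside nuclei was subtracted. Fos and Jun were no longer called in osteoblasts at an mt- limit of 20% (log2 ratios -0.78 and -0.74) or without a limit (-0.68 and -0.63), nor with Leiden clusters as the classes (-0.76 and -0.70).

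In blood nuclei 3 of 7 members were called lower, Fosb 3.04-fold, Fos 2.99-fold and Fosl2 2.65-fold, against 23.5% of genes lower and 23.9% higher. Their median log2 ratio was -0.94 and that of all genes 0.19. Macrophage nuclei did not share these low levels. They held 11 of the 12 Fosl2 UMIs of blood, at 133 CPM against 94.3 in gated stroma. Fosb was at 699 CPM in them against 761 in gated stroma, and Fos at 458 against 550. Without an mt- limit Fos (-0.90) and Fosl2 (-0.75) were not called, and Fosl2 was not called at a limit of 20% (-0.81) or with Leiden clusters (-0.31) either. In reticular nuclei, the CXCL12 and LEPR stroma of the marrow, only Junb was called, 2.13-fold higher, against 27.2% of genes higher and 9.23% lower. Jun and Jund lay just under the threshold at 1.98-fold each, and Junb fell to 1.96-fold when Gm42418, which took 20.7% of reticular UMIs, was left out. Its log2 ratio was also under the threshold at an mt- limit of 20% (0.93), without a limit (0.94) and with Leiden clusters (0.82).

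Atf3 was 3.94-fold [2.16–6.42] higher in hypertrophic nuclei, the 1 member called of 7, where 21.3% of genes were higher and 19.7% lower. That call rested on 17 UMIs and was lost at an mt- limit of 20% (log2 ratio 0.99) and without a limit (0.33). In tendon nuclei Fos was 3.0-fold [2.30–3.80] and Atf3 2.12-fold [0.708–4.40] higher, 2 of 7 members, against 22.4% of genes higher and 19.4% lower. Atf3 rested on 6 UMIs there and its interval included no change; its log2 ratio was 0.52 at an mt- limit of 20% and 0.49 without a limit. No member was called in chondrocyte nuclei, where 16.6% of genes were higher and 26.2% lower, or in mural nuclei, where 25.9% were higher and 15.6% lower. Fos and Fosb were nevertheless 1.67-fold [1.39–1.97] and 1.69-fold [1.45–1.95] higher in the pooled chondrocyte nuclei. Single nuclei of the 11 ranged from 0 to 3715 CPM of Fos and from 0 to 4085 CPM of Fosb. The nuclei with most Fos held 44, 30 and 28 of its 152 UMIs, while several were below the 518 CPM of the other stroma.

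Genes that act with the members were counted in the same comparisons, and each count stands against the share of all genes called there, which was 40.6% lower and 4.53% higher in osteoblast, 27.2% higher and 9.23% lower in reticular and 23.9% higher and 23.5% lower in blood nuclei. Of the 21 other immediate early genes all were measured, and 15 were called lower in osteoblast and 13 in blood nuclei, with none higher in either; 9 were higher and none lower in reticular nuclei. Ccn2, a matricellular protein induced by strain, was 10.4-fold lower in osteoblast nuclei, the nuclear receptor Nr4a3 8.88-fold and Ier5 7.34-fold, and Ccn1 was 7.62-fold lower in blood nuclei. The list's median log2 ratio was -1.68 in osteoblast nuclei and -1.19 in blood, where all genes had 0.19. The counts higher and lower were 6 and 1 in chondrocyte, 3 and 1 in hypertrophic, 7 and 3 in tendon and 2 and 1 in mural nuclei.

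Of 18 measured bZIP partners, 13 were lower and none higher in osteoblast nuclei, against 40.6% and 4.53% of all genes, and 10 were higher and none lower in reticular nuclei, against 27.2% and 9.23%. The list's median log2 ratio was -1.31 in osteoblast nuclei, where all genes had -0.78, and 1.05 in reticular nuclei, where all genes had 0.47. Maf, a large Maf factor that can pair with Fos and Jun, was 7.31-fold lower in osteoblasts. Crem, a cAMP-responsive repressor, was 6.28-fold higher in mural nuclei from 5 UMIs and Atf5 5.63-fold higher in tendon nuclei from 7. The counts higher and lower were 2 and 6 in chondrocyte, 6 and 1 in hypertrophic, 4 and 6 in tendon, 1 and 5 in mural and 3 and 2 in blood nuclei. Of 18 measured kinases, phosphatases and regulators upstream of AP-1, 11 were lower in osteoblast and 7 higher in reticular nuclei, against the same 40.6% and 27.2%, with median log2 ratios of -1.09 and 0.91. Dusp5, a phosphatase that acts on ERK, was 5.92-fold higher in chondrocyte nuclei. Mapk14, the p38 kinase, had 1 UMI there against 88 in the larger pool of the other stroma (a ratio of 0.163 [0.0027–0.626]). Map3k1, a kinase above JNK, was 5.65-fold higher in blood. Mapk8, which encodes JNK1, had no UMI in mural nuclei against 154 in the larger pool of the other stroma (a ratio of 0.105 [0–0.788]). The counts higher and lower were 1 and 1 in chondrocyte, 6 and 1 in hypertrophic, 5 and 5 in tendon, 7 and 3 in mural and 3 and 1 in blood nuclei.

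Among 11 measured heat shock genes, chaperones that stress also induces, 4 were lower in osteoblast nuclei and 2 higher in reticular nuclei, both no larger a share than the 40.6% and 27.2% of all genes, and 3 were higher and 1 lower in blood nuclei. Hsph1 was 3.44-fold higher in reticular nuclei and Hspa1b 3.39-fold higher in blood. Hspa1a had no UMI in chondrocyte nuclei against 37 in the other stroma, a far larger pool, and the interval of the ratio, 0 to 1.01, included no change. Hspb1 had 2 UMIs in tendon nuclei against 22, which was 4.55-fold higher per UMI [0.424–15.1] with an interval that also included no change. The counts higher and lower were 0 and 3 in chondrocyte, 1 and 2 in hypertrophic, 3 and 0 in tendon and 3 and 0 in mural nuclei. Of 11 measured genes known to respond to AP-1, 6 were lower in osteoblast nuclei, 5 higher and 1 lower in hypertrophic, 5 higher and 6 lower in reticular, and 4 higher and 6 lower in blood nuclei. Mmp9 was 19.7-fold lower and Mmp13 18.1-fold lower in osteoblasts, both matrix proteases, but Mmp13 was itself a marker of the hypertrophic gate. Ccl2, a chemokine, had no UMI in osteoblasts against 71 in the other stroma, and Hbegf none in blood against 65. The counts higher and lower were 5 and 5 in chondrocyte, 1 and 7 in tendon and 1 and 5 in mural nuclei.

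The mt- share was read as a sign of how far a nucleus carried cytoplasm or came from a stressed cell, which this assay does not tell apart. Over all 4489 nuclei Jun went from 724 CPM [661–791] at up to 2.5% mt- UMIs to 646, 350, 354 and 287 in the bins that ended at 5, 10, 20 and 30%, and to 216 [196–237] above 30%. Fos went 597, 744, 435, 432, 443 and 320, and Atf3 140, 81.3, 89.8, 96.0, 88.1 and 67.1, over the same 6 bins. None of these 3 was highest in the nuclei with most mt- RNA, but the classes were not equally common in the bins. Within reticular nuclei Fosb went from 1027 and 1097 CPM in the first 2 bins to 542 in the last, of 13 nuclei, whereas Jun went 630, 623, 397, 502, 468 and 705 with no such course.

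**Figure D2:**
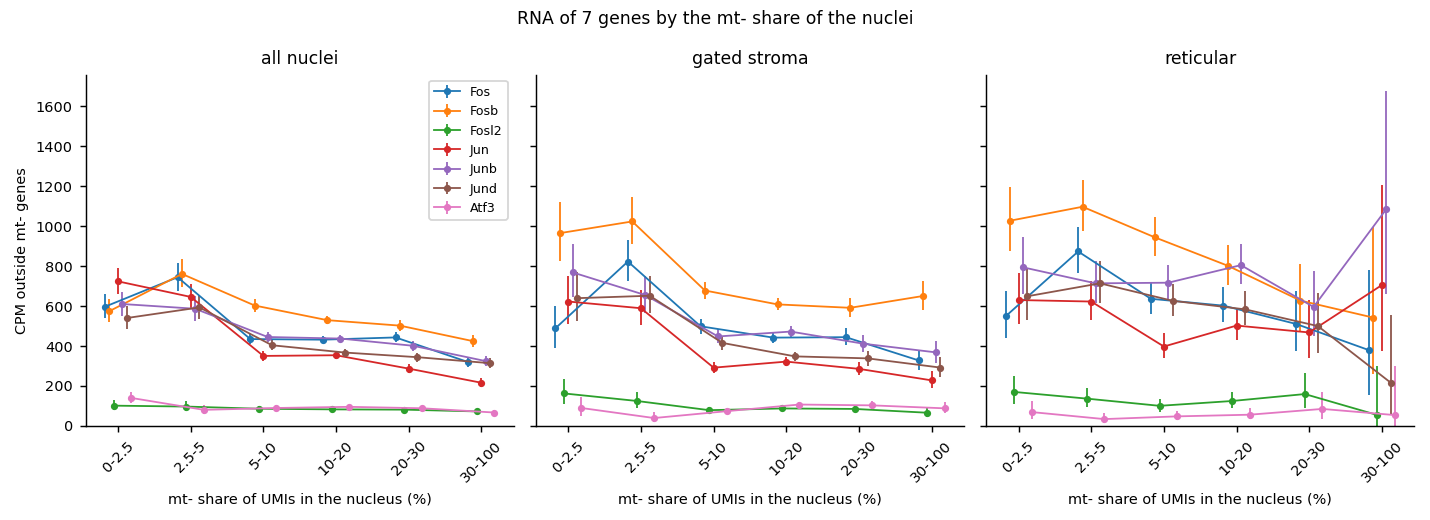
RNA of the members against the share of mt- UMIs in 6 bins, in CPM outside mt- genes with exact Poisson 95% intervals, for all nuclei and for gated groups. Jun in all nuclei falls from 724 to 216 CPM, while the reticular bin above 30% rests on 13 nuclei.

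Nuclei above 20% mt- UMIs were then set against nuclei at or under 10% within each class, and 9 of 53 pairs were called. The macrophage nuclei held 5 of the 9, with 122 nuclei above 20% and 21 at or under 10%. There 5 of 7 members were lower in the nuclei with more mt- RNA, against 19.4% of genes lower and 5.43% higher. Atf3 fell from 373 to 103 CPM (3.62-fold), Jund from 675 to 236 (2.86-fold), Jun from 542 to 200 (2.72-fold), Fosl2 from 133 to 49.9 (2.69-fold) and Fosb from 699 to 263 (2.67-fold). Fos at 458 and 356 CPM and Junb at 458 and 416 were not called. With nuclei of 1000 to 5000 UMIs only, Jund at a log2 ratio of -0.87 and Fosl2 at -2.32 were not called, the latter for too few UMIs.

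In hypertrophic nuclei 2 of 7 members were lower above 20%, against 18.8% of genes lower and 12.1% higher. Jun fell from 456 to 207 CPM (2.22-fold) and Atf3 from 242 to 75.2 (3.24-fold), and among nuclei of 1000 to 5000 UMIs both had too few UMIs to be called, at log2 ratios of -1.11 and -1.20. The nuclei at or under 10% had a median of 2257 UMIs there and those above 20% a median of 6346. Jund fell from 826 to 282 CPM (2.79-fold) in B-lymphoid nuclei, 1 of 3 members, with 18.1% of genes lower and 5.81% higher, but not in tertiles of the class (log2 ratio -0.82). Erythroid nuclei gave the only rise, Fos from 74.6 to 309 CPM (4.03-fold [1.77–10.5], 9 and 18 UMIs), 1 of 4 members, with 10.6% of genes higher and 15.3% lower. Both values were below the 436 CPM of RNA outside nuclei, and in the outer tertiles of the class the log2 ratio was 0.72.

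No member was called in the remaining classes. The shares of all genes higher and lower were 6.50% and 11.7% in chondrocyte, 2.54% and 7.32% in osteoblast, 4.46% and 18.3% in reticular, 6.53% and 11.5% in mural, and 25.1% and 18.4% in granulocyte nuclei. Fos was nearest in chondrocyte nuclei, at 860 CPM in the 11 nuclei at or under 10% and 446 in the 71 above 20% (a ratio of 0.518 [0.418–0.643]). In reticular nuclei Fos was at 695, 602 and 489 CPM in the 3 bins, Jun at 515 and 507 and Junb at 731 and 676 in the outer bins. In osteoblast nuclei the 7 members measured were 1.02-fold to 1.46-fold higher above 20%. When Gm42418 was left out, Atf3 in reticular (9 against 39 UMIs, 2.06-fold) and Jun in mural nuclei (2.08-fold) also passed the threshold, both higher. The tendon gate had no nucleus above 20%. Of the other immediate early genes, none was higher and 4 of 21 lower in reticular, 8 of 15 lower in hypertrophic and 3 of 18 lower in chondrocyte nuclei, and 2 of 19 were higher in osteoblast nuclei. In macrophage nuclei 1 of 14 was higher and 2 lower, against 5.43% and 19.4% of all genes. Their median log2 ratio there was -0.11 and that of all genes -0.44. Granulocyte nuclei had 3 of 8 lower, and B-lymphoid nuclei 1 higher and 2 lower of 4. Mural nuclei had 1 of 10 lower and erythroid nuclei 1 of 4 higher. Of the heat shock genes, 4 of 10 were lower in macrophage nuclei, 2 were higher and 1 lower of 10 in reticular nuclei, and 2 of 4 were lower in hypertrophic and 1 of 10 in osteoblast nuclei. Hsp90aa1 and Hsp90ab1 were higher in both erythroid and granulocyte nuclei, 2 of 3 measured in each, and 1 of 4 was higher in B-lymphoid nuclei.

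Accessibility was read as the ATAC counts of all peaks within 50 kb of the gene body, per 1000000 ATAC counts in peaks (CPM). The windows held between 17 peaks (Jun) and 36 (Atf3), and a window was called at 1.5-fold and 50 counts. Of 63 pairs 8 were called. In blood nuclei 2 of 9 windows were higher, Junb at 698 against 387 CPM (1.81-fold [1.72–1.89]) and Jund at 565 against 336 (1.68-fold [1.60–1.77]), where 31.6% of all windows were higher and 27.6% lower. Jund was not called without an mt- limit (log2 ratio 0.55). The windows of Fos (326 against 384 CPM), Fosl2 (155 against 184) and Fosb (528 against 457) stayed within 1.5-fold in blood, although their RNA was 2.65-fold to 3.04-fold lower.

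The Atf3 window was 1.82-fold [1.58–2.08] higher and the Batf window 1.64-fold lower in hypertrophic nuclei, 2 of 9, with 15.8% of windows higher and 16.5% lower. Atf3 RNA was higher in these nuclei too, and both the RNA and the window call were lost without an mt- limit (window log2 ratio 0.44). Fosl2 and Junb were both 1.62-fold higher in tendon nuclei (20.2% of windows higher, 22.3% lower). Fosl2 was 1.55-fold higher and Batf 2.22-fold lower in mural nuclei (11.4% higher, 18.0% lower). No window was called in osteoblast nuclei (14.3% higher, 14.3% lower), although 5 members were lower there in RNA. None was called in chondrocyte (18.9% higher, 17.0% lower) or reticular nuclei (10.3% higher, 16.4% lower) either. For Fos the osteoblast window was at 321 CPM against 393 in the other stroma, and its promoter peak at 44.5 against 55.4.

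Single peaks within the windows were called at 2-fold and at least 50 counts over both sides. Apart from the promoter peak of Fosb, those named were picked among each member's called peaks with the largest ratios. Some, such as the Batf peaks in reticular nuclei, passed 50 counts only through the class in which they were higher. Ratios picked in this way are a description and no support. In hypertrophic nuclei 9 of 16 measured peaks of Atf3 were higher, with 14.0% of all peaks higher. This was not particular to them: in chondrocyte nuclei 7 of the 16 were higher and 4 lower, with 14.5% of all peaks higher. The peak at chr1:191216069-191216860, inside the gene, had 22 counts in the 15 hypertrophic nuclei and 104 in the 406 others (5.40-fold). The Fosb peak with TGANTCA shown above, chr7:19316274-19317151, had 55 counts against 383 (3.63-fold), while the Fosb promoter peak was at 16.3 against 49.2 CPM in the same nuclei. The Junb peak with TGANTCA, chr8:84982081-84982873, had 23 counts against 36 (16.1-fold). In blood the same Junb peak had 57 counts against 59 in all gated stroma (4.13-fold).

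In chondrocyte nuclei 4 of 15 measured Fos peaks were higher, with 14.5% of all peaks higher. Both upstream peaks with the largest ratios, chr12:85451673-85452572 (40 counts against 54, 18.0-fold) and chr12:85430140-85431030 (20 against 35, 14.0-fold), had the start of Gm40477 as their nearest. The Fosl1 promoter peak was 3.28-fold [2.10–4.81] higher at 44.3 against 13.7 CPM, beside 5 of the 14 Fosl1 UMIs of the stroma. A Fosl1 peak with TGANTCA, chr19:5429521-5430408, was 4.81-fold higher and nearest to AI837181.

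In reticular nuclei 2 of 15 Fos peaks were higher, and 31.2% of all peaks. These lay 24002 and 19781 bases after the Fos start: chr12:85497432-85498352 had 553 counts against 60 (3.22-fold), and chr12:85493228-85494114 had 163 against 18 (3.11-fold). Batf had 5 of 12 peaks higher there, among them chr12:85684230-85685141 in front of its start with 112 counts against 2, and chr12:85638968-85639882 with 81 against 0, which was nearest to Jdp2. In blood 13.8% of all peaks were higher, with 8 of 17 for Junb, 8 of 21 for Jund and 4 of 13 for Fosl2, but none of 17 for Fos and 2 of 18 for Atf3. Lower peaks were 55.1% of all, and 8 of 18 for Atf3 and 6 of 17 for Fos. The Fosl2 peak chr5:32121996-32122868 had 81 counts in blood and 8 in all gated stroma (41.0-fold), and the Fosl2 peak with TGANTCA, chr5:32103834-32104761, had 40 against 43. For Atf3 in blood, chr1:191200927-191201830 had 44 counts against 10 (18.1-fold) and the peak with TGANTCA had 56 against 58.

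The types of blood differed from each other at the promoters, read as peaks within 1 kb of the starts and called at 2-fold against gated stroma. In erythroid nuclei 5 of 9 promoters were lower and 1 higher, with 34.8% of all genes lower and 33.7% higher. Fosl2 was at 8.33 CPM against 77.6 (8.84-fold lower [4.90–20.4]), Atf3 at 9.25 against 74.1 (7.63-fold), Fos at 11.1 against 53.9 (4.67-fold [2.77–9.44]) and Jun at 16.7 against 79.5 (4.65-fold). Junb, at 26.8 against 54.6, lay at the threshold. Jund went the other way, at 245 CPM against 104 (2.35-fold higher), and Fosb at 62.9 against 74.1 was not called. In RNA the same 69 erythroid nuclei had 9 UMIs of Fos, 3 of Jun, 1 of Fosl2, none of Atf3 and 31 of Jund.

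In granulocyte nuclei none of the 9 promoters was lower and 3 were higher, with 30.4% of all genes lower and 21.3% higher. Fosl1 was at 58.4 CPM against 14.9 (3.95-fold), Junb at 118 against 54.6 (2.18-fold) and Fos at 115 against 53.9 (2.15-fold). Fosb, Fosl2, Jun, Jund and Atf3 were 1.53-fold to 1.80-fold higher. Fos RNA was at 130 CPM in the same 51 nuclei and 550 in gated stroma, so promoter accessibility and RNA stood in opposite directions there. The granulocyte value rested on 8 UMIs and was below the level of Fos in RNA outside nuclei. Gm42418 took 46.0% of the granulocyte UMIs, and without it the 3 calls in all blood nuclei stayed lower. Those calls are for pooled blood and not for granulocyte nuclei alone.

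**Figure D3:**
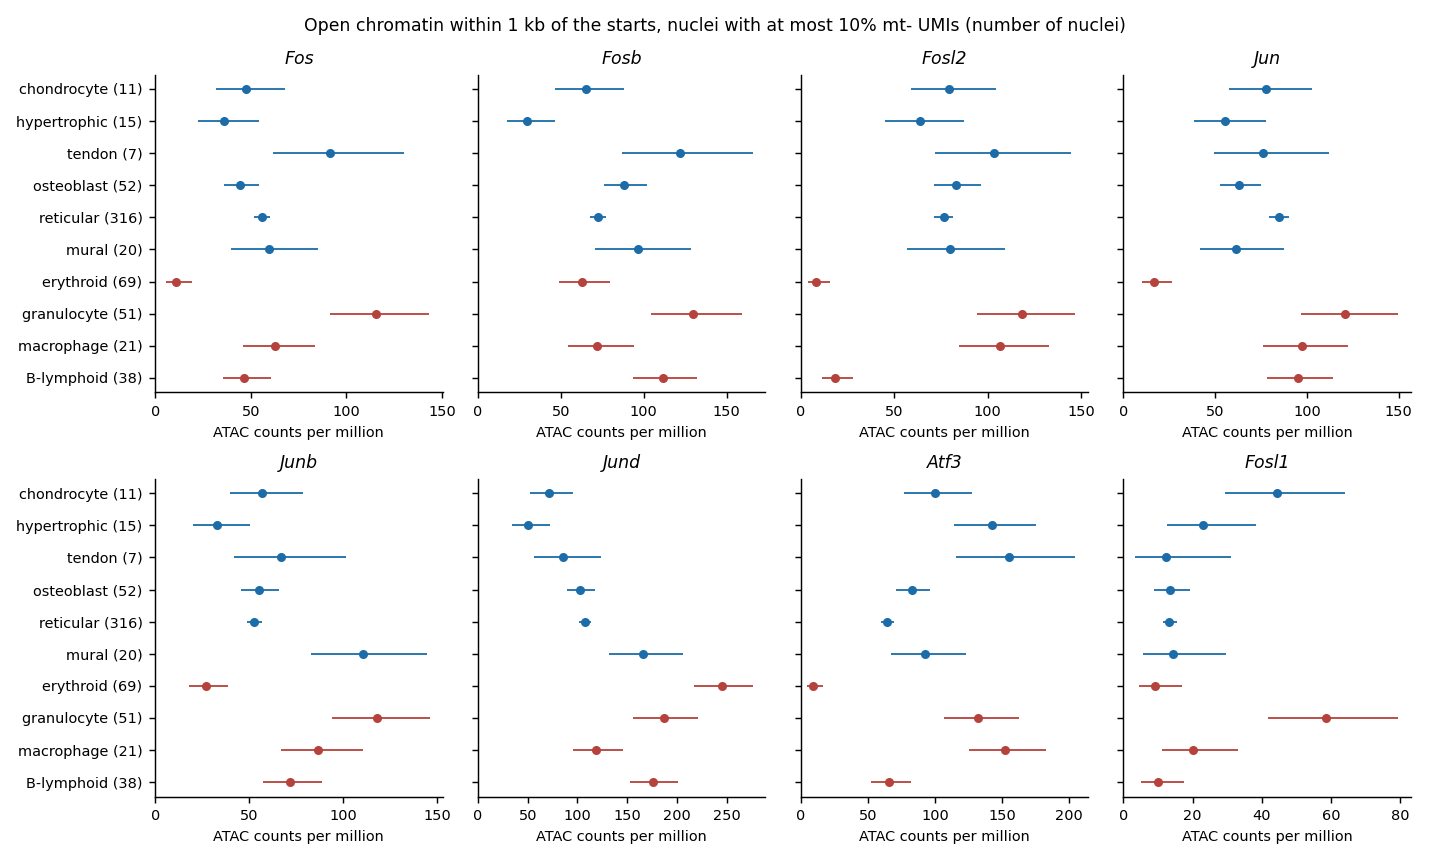
Accessibility of peaks within 1 kb of the members' starts in gated stroma, erythroid and granulocyte nuclei, in CPM with exact Poisson 95% intervals. Fos, Fosl2, Jun and Atf3 are between 8.33 and 16.7 in erythroid nuclei against 53.9 to 79.5 in stroma, whereas Jund is highest in erythroid nuclei at 245.

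The letters TGANTCA, which include the preferred AP-1 site, were counted over the whole genome. The value is the share of a class's ATAC counts in peaks with TGANTCA in their central 200 bases. Such peaks were 15.7% of all, and peaks with the control letters TGANACA 14.5%. The share was 18.1% in hypertrophic and 16.5% in chondrocyte nuclei, 11.6% in macrophage, 10.7% in mural, 10.5% in tendon, 9.24% in reticular, 8.52% in osteoblast, 6.31% in granulocyte and 4.86% in both erythroid and B-lymphoid nuclei. The control share moved less, from 9.98% in hypertrophic and 9.97% in chondrocyte nuclei to 9.10% in reticular, 8.52% in osteoblast and 5.67% in erythroid nuclei. These shares are pooled over the nuclei of a class, so that nuclei with more counts weigh more. The medians of single nuclei were 17.3% in the 11 chondrocyte and 14.8% in the 15 hypertrophic nuclei, the reverse of the pooled order, then 10.9% in macrophage, 9.39% in tendon, 8.23% in mural, 7.23% in reticular, 7.10% in osteoblast, 6.29% in granulocyte, 4.78% in B-lymphoid and 4.31% in erythroid nuclei. By mt- share, the pooled hypertrophic value went from 18.1% at or under 10% to 15.4% above 20%, the chondrocyte value from 16.5 to 15.8%, and the reticular value from 9.24 to 9.51%. The medians of single nuclei did not fall with it, at 14.8 and 15.4% in hypertrophic and 17.3 and 17.5% in chondrocyte nuclei. Pooled erythroid nuclei went from 4.86 to 7.08%, but their medians were 4.31 and 4.57%, with an upper quartile of 6.54% and a highest nucleus of 13.0% above 20% mt- UMIs. Granulocyte nuclei went from 6.31 to 8.11% pooled and from 6.29 to 7.79% by their medians, while their control median went from 7.96 to 9.03%.

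**Figure D4:**
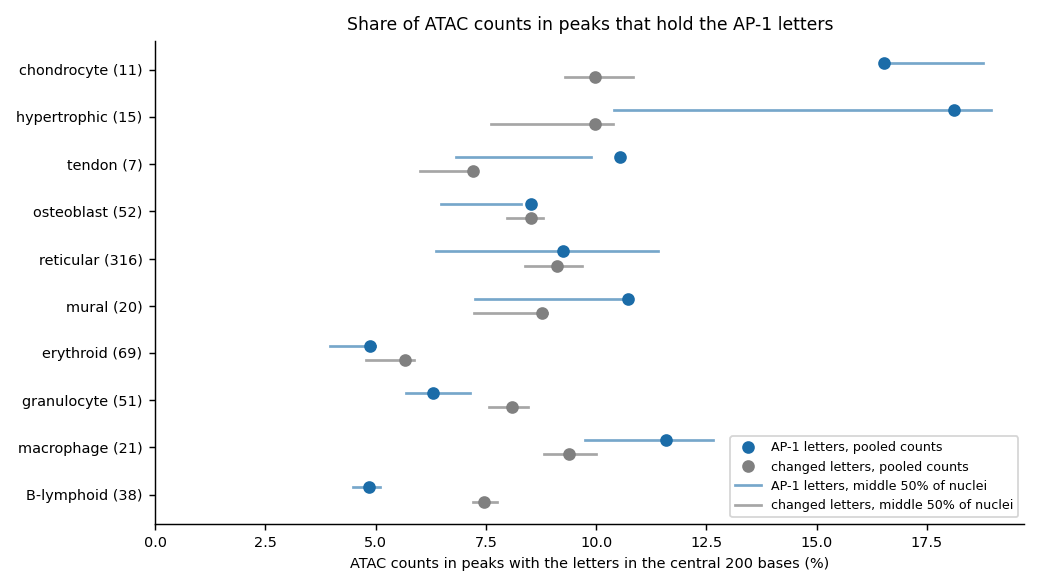
Share of ATAC counts in peaks with TGANTCA in the central 200 bases, and with the control letters TGANACA, by class of nuclei with at most 10% mt- UMIs, pooled over nuclei, in percent. The pooled share with TGANTCA is 18.1% in hypertrophic and 16.5% in chondrocyte nuclei, whose medians over single nuclei stand in the reverse order at 14.8 and 17.3%, and 4.86% in erythroid nuclei.

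Single nuclei of a class differed widely in this share. Over the 316 reticular nuclei with at most 10% mt- UMIs it ran from 2.95% to 16.6%, with quartiles of 6.37, 7.23 and 11.4%, while the control share had quartiles from 8.39 to 9.67%. The nuclei of each class, at any mt- share, were therefore cut into tertiles, which are 3 groups of near-equal size, by the TGANTCA share and their RNA compared. In the reticular tertiles, of 169, 169 and 168 nuclei, the share ran from 2.23 to 6.75%, 6.76 to 10.0% and 10.1 to 18.4%. Median UMIs were 1701, 2169 and 2493 and median mt- shares 5.45, 9.40 and 7.80%.

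Fosl2 went from 38.7 to 110 and 209 CPM over the reticular tertiles (highest over lowest 5.23-fold [3.01–10.5]). Junb went 450, 734 and 974 CPM (2.16-fold) and Fosb 548, 935 and 1181 (2.15-fold). These 3 of 7 members were called higher and none lower, with 11.3% of all genes higher and 9.33% lower. Fos and Jun did not follow: Fos was at 486, 1060 and 361 CPM and Jun at 498, 648 and 381. The middle tertile exceeded the lowest 2.18-fold for Fos and 2.77-fold for Fosl2, with 3.84% of genes higher and 3.42% lower, and Fos was 2.93-fold lower in the highest than in the middle tertile, with 7.26% of genes higher and 7.36% lower. Jund went 533, 618 and 690 CPM and Atf3 74.5, 45.4 and 44.1. With at most 10% mt- UMIs the same 3 were at 53.3, 96.4 and 204 CPM (Fosl2), 431, 675 and 995 (Junb) and 591, 982 and 1332 (Fosb). Leaving out all peaks within 50 kb of the members kept each of these calls, and with distal peaks only the log2 ratio of Junb was 0.95.

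**Figure D5:**
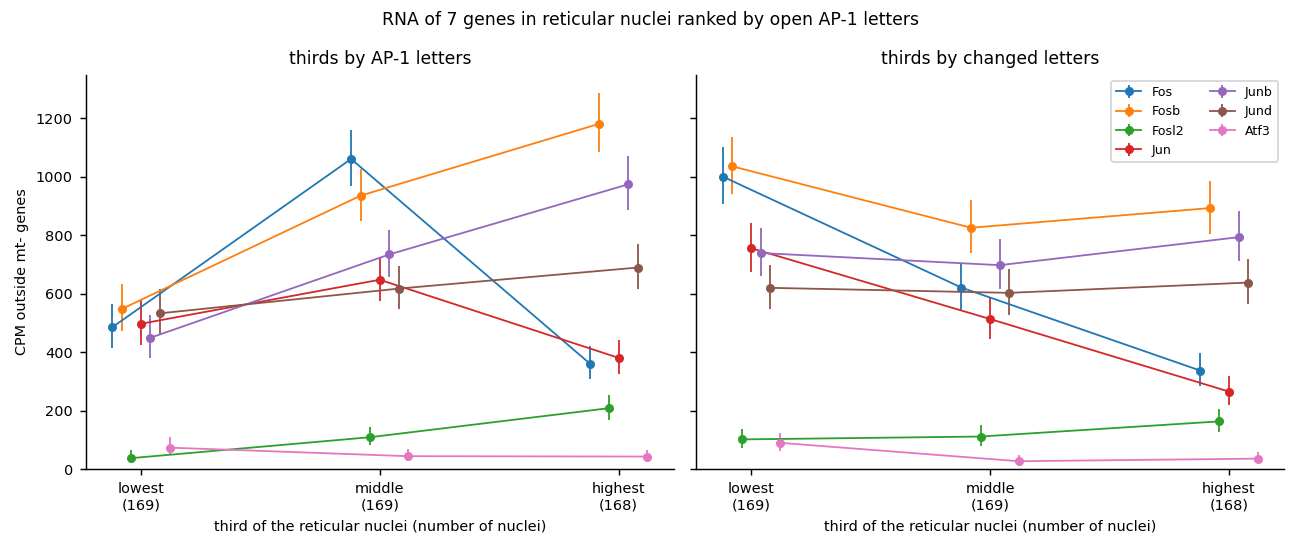
RNA of the members in reticular nuclei cut into tertiles by the share of ATAC counts in peaks with TGANTCA, in CPM outside mt- genes with exact Poisson 95% intervals. Fosl2 climbs from 38.7 to 209 CPM and Junb from 450 to 974, while Fos is highest in the middle tertile at 1060.

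Tertiles cut by the control letters TGANACA gave another picture in reticular nuclei. Fos was at 1000, 621 and 338 CPM (2.96-fold lower in the highest tertile), Jun at 756, 514 and 266 (2.83-fold lower) and Atf3 at 90.9, 28.1 and 37.0 (2.41-fold lower). Fosl2 at 103, 112 and 164 CPM, Junb at 739, 698 and 793 and Fosb at 1035, 825 and 893 were not called. Among the other genes over the tertiles by TGANTCA, 7 of 20 immediate early genes were higher and none lower, 4 of 17 bZIP partners were higher and 1 lower, and 5 of 15 upstream regulators were higher and 1 lower. Of 8 genes known to respond to AP-1, 4 were higher and none lower, with Mmp9, the gelatinase, at 32.8, 84.2 and 1472 CPM. Of 9 heat shock genes 3 were lower and none higher. The summed reticular markers went 12786, 9943 and 7367 CPM over the same tertiles, the osteoblast markers 21205, 20934 and 18043, the mural markers 641, 568 and 326 and the endothelial markers 2.98, 8.64 and 6.61, and their part in the result was not tested.

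Fosl2 was higher in the highest tertile of 5 of the 6 classes cut in this way. It was 3.54-fold [2.20–6.14] higher in osteoblast nuclei, where Atf3 was 4.0-fold [2.74–6.16] higher too, 2 of 7 members, with 8.75% of genes higher and 3.63% lower. It was 3.04-fold higher in hypertrophic nuclei (10.9% of genes higher, 9.36% lower) and went from 1 to 31 UMIs in mural nuclei, where Junb was 2.54-fold higher and Jun 2.02-fold lower (14.7% higher, 9.37% lower). Other marker RNA moved over these tertiles as well. From the lowest to the highest osteoblast tertile the periosteal fibroblast markers went from 32.3 to 133 CPM, the mural markers from 107 to 257, the macrophage markers from 102 to 192 and the reticular markers from 231 to 341. Over the mural tertiles the B-lymphoid markers went from 638 to 45.8 CPM and the reticular markers from 1169 to 702, both of classes in which Jun was high, and over the hypertrophic tertiles the periosteal fibroblast markers went from 290 to 68.9 and the reticular markers from 620 to 357. In macrophage nuclei Fosl2 was 2.05-fold [0.980–4.93] higher and Fos 2.16-fold lower (12.3% higher, 7.76% lower), while the reticular markers went from 3325 to 2058 CPM. In chondrocyte nuclei Fos was 2.48-fold and Atf3 2.05-fold lower (10.6% higher, 11.2% lower), while the reticular markers went from 738 to 170 CPM and the osteoblast markers from 16563 to 10087. The part of these markers in the results was not tested. By the control letters Fosl2 was also higher in osteoblast (2.98-fold), hypertrophic (4.64-fold) and mural nuclei (2.33-fold), so that its course was not particular to TGANTCA in those 3 classes.

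At any mt- share and 1000 UMIs, Jun was more frequent in nuclei with Fos in all classes measured except erythroid and granulocyte nuclei. After each nucleus was thinned to 1000 UMIs, 97 of 287 reticular nuclei with at most 10% mt- UMIs held a Fos UMI. Of these 45.4% [35.2–55.8] held a Jun UMI, against 21.1% [15.5–27.5] of the 190 without Fos. Junb was found in 59.8 and 40.0%, Fosb in 62.9 and 34.7% and Atf3 in 9.28 and 2.63%. Reticular nuclei of any mt- share gave 46.6 and 23.0% for Jun, osteoblast nuclei 37.5 and 13.0%, and chondrocyte nuclei 47.4 and 22.2%. Some pairs in other classes went the other way. Of the 12 granulocyte nuclei with Fos none held Jun or Junb [0–26.5%], against 15.8 and 26.3% of the 57 without. Junb was found in 32.1 and 45.5% of mural nuclei with and without Fos, in 10.0 and 21.4% of B-lymphoid nuclei, and in 33.3 and 66.7% of the 6 and 12 macrophage nuclei with at most 10% mt- UMIs. Macrophage nuclei of any mt- share gave 44.9 and 36.8% for Junb. In erythroid nuclei Jun was found in none of 7 with Fos and 3.37% of those without. Some of these pairs turned with the thinning. At 500 UMIs Junb was found in 28.6 and 24.6% of mural nuclei and Jun in 14.3 and 3.03% of erythroid nuclei. Jun in hypertrophic nuclei turned the other way there, at 9.09 and 15.5%. Without thinning Junb was found in 34.6 and 22.9% of granulocyte nuclei. Jun in granulocyte and Junb in B-lymphoid nuclei stayed less frequent with Fos at both settings. Erythroid nuclei, as a class that should hold little of these genes, had a Fos UMI in 7.29% of 96 nuclei and a Jun UMI in 3.13% after the same thinning, with 46 shallower nuclei left out, while reticular nuclei had Fos in 32.7% of 453.

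Over the 10 classes (6 of stroma, 4 of blood) the levels of the members were alike to different degrees, as a description of 10 points from 1 library. Fos and Fosb had the highest Pearson correlation of log2(CPM + 10) among member pairs, 0.919, followed by Fosb and Fosl2 at 0.887, and Jund and Atf3 the lowest at 0.146. Among 1738 other genes, those most like Fos were Mir99ahg (0.972), Ahnak (0.931), Klf4 (0.923), Egr1 (0.909) and Anxa6 (0.908). Fosb was most like Mt1 (0.963), Ahnak (0.962), Egr1 (0.936), Glis3 and Lrp1 (both 0.916). Genes most like Fosl2 included Arhgef10l (0.976), Fmn1 (0.975), Fam129b (0.960) and Ppfibp1 (0.955). Jun was most like Dnaja1 (0.962), Jmjd1c (0.959), Slc4a7 (0.914), Fndc3a (0.904) and Tcf4 (0.897), and genes most like Junb included Pam (0.923), Hif1a (0.913), Wsb1 (0.909) and Ier5 (0.900). Jund was most like Trpm7 (0.898), Ino80d (0.894), Srsf7 (0.881), Rbbp6 (0.879) and Foxn3 (0.865), and Atf3 most like Tm9sf2 (0.896), Reep3 (0.870), Vim (0.869), Cd63 (0.868) and Mapkapk2 (0.866).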

How the data were processed

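The deposited matrix held raw counts made by the authors with Cell Ranger ARC 2.0.0 on mm10: RNA UMIs for each gene and ATAC counts for each peak and barcode. The deposited peak list held coordinates only and was not used. The depth was 35460453 RNA UMIs and 191398837 ATAC counts over all barcodes. Nuclei needed 500 UMIs and 1000 ATAC counts; Scrublet marked 0 barcodes, so the 174 with the highest doublet scores were removed. Nuclei were assigned to classes by likelihood from seed nuclei with at least 3 markers (2 for lists of up to 5 genes). UMIs were summed by class. Levels had exact Poisson intervals, shares Clopper-Pearson intervals and folds exact conditional intervals, and log2 ratios had 0.5 counts added. The scripts were tested on simulated counts. Genome letters came from GRCm38.p6, on which all peaks of 21 of 21 chromosomes lay, and promoters from RefSeq (8 of 9 members); gene positions for windows followed GENCODE models. Members, lists and markers were chosen with earlier results of these data known. The gate for short lists, the tertiles, TGACG and the contrasts of blood types at promoters were chosen after seeing the data. Named genes were all members, up to 4 genes of each list with the largest log2 ratio in 1 class, and the 5 genes most like each member, some of which are not reported here. Python 3.11.15, numpy 2.4.6, scipy 1.17.1, pandas 2.3.3, scanpy 1.11.5, leidenalg 0.10.2 and matplotlib 3.10.9 were used.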

Additional observations from a re-analysis of the deposited data

How the results depend on the processing

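No paired analysis was possible because there was 1 library of each kind. The 12 RNA calls by class of 49 pairs became 30 at 1.5-fold; 6 of the 12 were lost at an mt- limit of 20%, 7 without a limit, 4 of 10 with Leiden clusters and 1 without Gm42418, and none with a stricter gate, more doublets removed, free RNA subtracted or at least 1000 UMIs. The 8 window calls became 5 without an mt- limit, 15 for promoter peaks within 1 kb and 1 at 2-fold, and Batf in hypertrophic nuclei turned to a log2 ratio of 0.0557 for promoter peaks. The 9 calls by mt- share became 17 with CPM over all UMIs and 23 at 1.5-fold; 3 were lost with tertiles of the class and 5 among nuclei of 1000 to 5000 UMIs. The ratio of the TGANTCA share between hypertrophic and osteoblast nuclei, 2.13, was 1.55 with the letters anywhere in the peak, 2.08 for distal peaks and 1.86 without an mt- limit. The share of reticular nuclei with Jun among those with Fos, 45.4%, was 59.9% without thinning. The 13 calls by tertiles were 12 to 15 under the alternatives, which were added after seeing the data, and Fosb in reticular nuclei turned to -0.21 with tertiles by TGANACA; 5 further calls were lost there. The causes were not tested. Depth limited Fosl1 and Batf throughout, and classes of 7 to 20 nuclei gave wide intervals.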
